A study of Mus musculus with 8 samples.

Results

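Macrophages that had been grown from mouse bone marrow were compared under a combined stimulus and under 2 stimuli given apart, to ask which genes departed from the sum of the separate responses. The combined group (LPS/IL4/IL13) received LPS, IL4 and IL13 together, the IFN/LPS group received IFN gamma with LPS, the IL4/IL13 group received both of those cytokines without LPS, and the Control group was left untreated, all for 6 h. The series holds 8 arrays, all of which were used, with 2 arrays in each of the 4 groups. For each of 19938 named genes the sum of the log2 changes of IFN/LPS and IL4/IL13 over Control gave an additive level, and the additivity contrast was the LPS/IL4/IL13 level minus that additive level. A positive contrast means that the combination lay above the sum, and a negative one that it lay below. Because the scale is log2, a sum of changes is a product of folds. IFN gamma was present in only one of the groups with LPS, so the contrast is not a pure interaction of LPS with IL4/IL13: the absence of IFN gamma and the presence of IL4/IL13 in the combined group cannot be told apart. Whether the paired arrays of a group stand for separate cultures is not stated in the labels. The p-values therefore cover the spread between the arrays, which may be technical. In such bulk samples, a smaller number of cells with a transcript and less transcript per cell cannot be told apart.

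LPS, from the outer membrane of bacteria, is recognised through Toll-like receptor 4, which activates NF-kB and interferon regulatory factors and induces inflammatory cytokines. IFN gamma primes macrophages for microbial killing and antigen presentation. IL4 and IL13 signal through STAT6 and induce a set of genes often called alternative activation, among them Arg1, Retnla and Mrc1 in mice. These programs are known to restrain each other at some genes and to act jointly at others.

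Values are log2 signals as deposited, given in the 2 arrays of each group, and contrasts carry ± the SE of the limma model (n = 2 arrays in each group). The words raised and lowered, of a treatment against Control, are used where limma's adjusted p against Control was under 0.05. By that rule 20.3% of all genes were raised and 25.4% lowered in LPS/IL4/IL13, 23.6% and 28.4% in IFN/LPS, and 7.83% and 12.3% in IL4/IL13. A gene was called where its limma p-value, adjusted by Benjamini-Hochberg over the 19938 genes, was under 0.05. Array medians lay between 6.12 and 6.20, and the r between the arrays of a group, taken over genes and thus not over independent units, was between 0.9939 and 0.9974. All 8 macrophage markers examined, including Adgre1, Csf1r and Cd68, lay above the median Control level of all genes. Their summed linear signal was 36340 to 37380 in LPS/IL4/IL13, 34710 to 35240 in IFN/LPS, 35430 to 35570 in IL4/IL13 and 40290 to 40550 in Control arrays.

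The combination departed from the sum at 4004 genes, 20.1% of those tested. It lay above the sum at 2634 genes (13.2%) and below it at 1370 (6.87%). Departures of at least 1 on the log2 scale were found at 667 of the genes above and 407 of those below, and of at least 2 at 75 and 97. For all 4004 genes the sign of the contrast was the same in each of the 16 ways of taking 1 array per group, and this was so for 23.1% of all genes above and 23.6% below, called or not. Quantile normalization of the arrays gave 2131 genes above and 1732 below, so the share above among called genes was 55.2% there and 65.8% with the values as deposited. Without Control array 1 the counts were 1573 above and 905 below, and without IL4/IL13 array 2 there were 1737 above. The median contrast of all genes was -0.07.

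**Figure D1:**
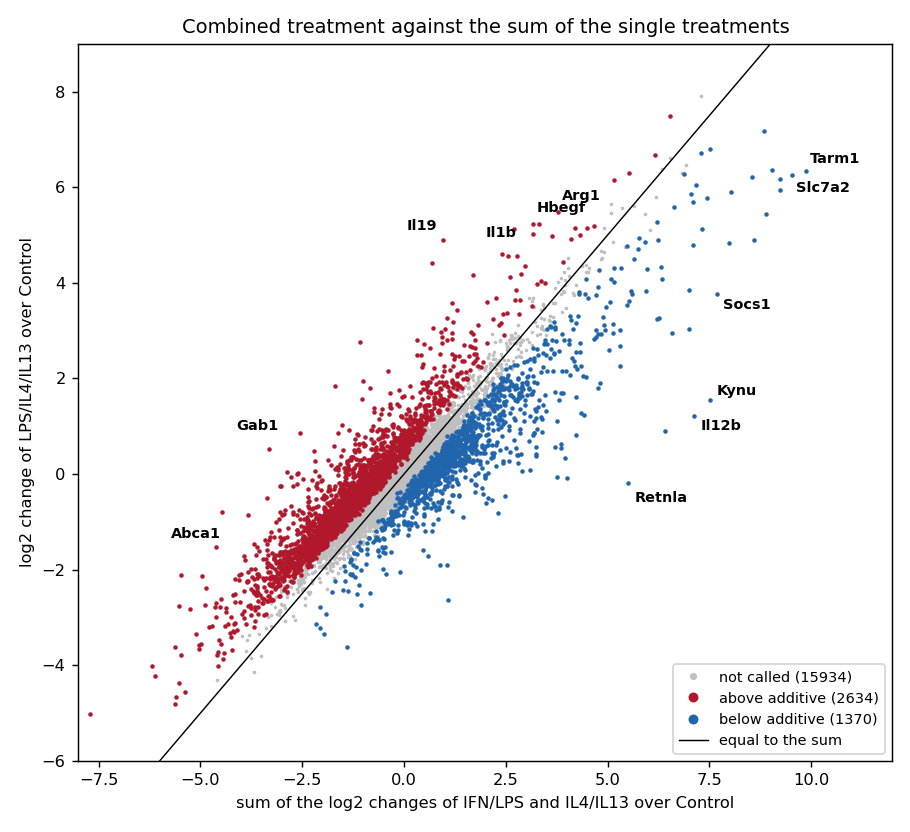
Log2 change of LPS/IL4/IL13 over Control (vertical axis) against the sum of the log2 changes of IFN/LPS and IL4/IL13 over Control (horizontal axis), 1 point per gene, means of 2 arrays per group. The 2634 genes called above the sum lie over the line of equality and the 1370 called below lie under it. Retnla, Il12b and Kynu stand far below the line and Il19 and Gab1 far above it.

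The direction of a departure can come from different arrangements of the 4 groups, so called genes were sorted by whether each separate treatment changed the Control level by at least 1 on the log2 scale. The same 8 arrays give the arrangement and the contrast, so these counts describe the called genes and were not tested. Of the genes above the sum, 1149 changed by less than that under either treatment, 1122 fell short of Control by at least 1 in IFN/LPS only, 107 exceeded it in IFN/LPS only, and 147 were lower in both. Of the genes below the sum, 692 changed by less than 1 under either treatment, 496 were higher in IFN/LPS only, 55 were higher in IL4/IL13 only and 77 were higher in both. The class with changes under 1 in both treatments held 16355 genes, of which 7.03% lay above and 4.23% below. The shares over all genes were 13.2% and 6.87%. Of the 2057 genes lower in IFN/LPS only, 54.5% lay above. Of the 1037 higher in IFN/LPS only, 10.3% lay above and 47.8% below. Of the 99 higher in IL4/IL13 only, 55.6% lay below. There were 153 genes whose mean was lower than Control by at least 1 under both treatments, of which 147 lay above the sum and 0 below it. There were 91 whose mean was higher by at least 1 under both, of which 77 lay below and 3 above. Both LPS/IL4/IL13 arrays lay above the other 6 arrays in 510 of the genes above the sum, and below the other 6 in 230 of the genes below it. The reverse also occurred: both lay below the other 6 in 105 of the genes above the sum. They lay above the other 6 in 44 of the genes below it. Over all genes the combination stood apart in this way upward in 7.15% and downward in 5.55%. In limma's direct comparisons of the combination, 12.1% of all genes were higher and 7.62% lower than in IFN/LPS, and 14.1% were higher and 22.6% lower than in IL4/IL13.

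**Figure D2:**
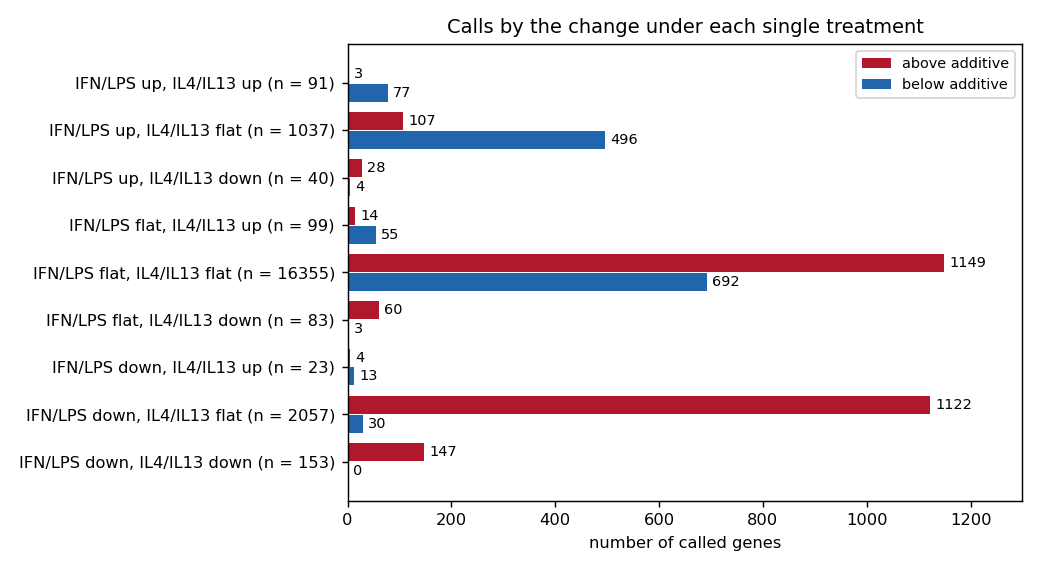
Number of genes called above (red) or below (blue) the sum, by the arrangement of the separate treatments; up and down mean a change over the Control mean of at least 1 on the log2 scale, and n is the number of genes with that arrangement. Genes down under both treatments were above the sum in 147 cases, and genes up under both were below it in 77.

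The additive level can lie beyond what the arrays record. The highest value of any named gene was 13.59. In 25 of the genes below the sum, 23 of them higher by at least 1 under both treatments, the additive level exceeded that value, a level that no named gene showed on any array. In 39 of the genes above the sum, the additive level lay under 3.94, the 5th percentile of all values of named genes. Departures were also more frequent among bright genes, with 525 to 600 of 1994 genes above the sum in each of the 3 brightest deciles by mean signal and 14 of 1995 in the dimmest. The genes below the sum numbered 310 in the brightest decile and 26 in the dimmest. The median contrast was -0.14 in the dimmest decile and 0.24 in decile 8, and the part of signal level in the calls was not tested.

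In 4 of the 12 highest contrasts the combination stood high and neither separate treatment raised the gene by as much as 1 on the log2 scale. Il19, which encodes a cytokine of the IL-10 family, had log2 signals of 10.37 and 10.24 in LPS/IL4/IL13, against 6.17 and 6.07 in IFN/LPS, 5.64 and 5.66 in IL4/IL13 and 5.20 and 5.61 in Control. Only the combination stood high, 15.3-fold above the additive level (contrast 3.94 ± 0.19, adjusted p = 1.05e-07). Gadd45a, a growth-arrest and DNA-damage stress gene, had 10.19 and 9.72 in LPS/IL4/IL13, against 7.13 and 6.89 in IFN/LPS, 6.37 and 6.26 in IL4/IL13 and 7.23 and 7.17 in Control. It was slightly lower than Control under IL4/IL13 and highest in the combination (contrast 3.83 ± 0.20, adjusted p = 2.05e-07). Zfp459, a zinc finger protein gene, had 9.72 and 9.47 in LPS/IL4/IL13, against 5.46 and 5.23 in IFN/LPS, 5.59 and 5.78 in IL4/IL13 and 5.04 and 5.30 in Control, with a contrast of 3.74 ± 0.19, adjusted p = 1.89e-07. Id3, which encodes an inhibitor of basic helix-loop-helix transcription factors, had 8.57 and 7.81 in LPS/IL4/IL13, against 6.12 and 6.02 in IFN/LPS, 5.18 and 5.66 in IL4/IL13 and 6.29 and 6.21 in Control. Its contrast was 2.95 ± 0.30, adjusted p = 2.47e-05, and the 2 combination arrays lay further apart than those of the other genes in this group.

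In 7 others of the 12 highest contrasts, each separate treatment lowered the gene and the combination did so less than their sum, or not at all. Gab1, a docking protein downstream of receptor tyrosine kinases, had 10.57 and 10.37 in LPS/IL4/IL13, against 8.26 and 8.31 in IFN/LPS, 8.27 and 8.29 in IL4/IL13 and 9.99 and 9.89 in Control. Both separate treatments lay below Control and the combination lay above it, 14.4-fold over the additive level (contrast 3.84 ± 0.13, adjusted p = 7.96e-09). Il21r, the receptor gene for IL-21, had 9.43 and 9.11 in LPS/IL4/IL13, against 6.31 and 6.54 in IFN/LPS, 7.92 and 7.80 in IL4/IL13 and 8.52 and 8.32 in Control, with a contrast of 3.40 ± 0.18, adjusted p = 2.19e-07. Stk17b, a serine/threonine kinase gene, had 9.67 and 9.45 in LPS/IL4/IL13, against 8.36 and 8.21 in IFN/LPS, 8.18 and 7.72 in IL4/IL13 and 10.38 and 10.33 in Control. There the combination stayed short of Control but above both separate treatments (contrast 3.68 ± 0.19, adjusted p = 1.95e-07). Hmox1, the haem-degrading enzyme haem oxygenase 1, showed the same order, with 10.47 and 10.48 in LPS/IL4/IL13, against 9.02 and 8.85 in IFN/LPS, 9.92 and 9.91 in IL4/IL13 and 11.37 and 11.31 in Control and a contrast of 2.96 ± 0.11, adjusted p = 1.47e-08. Abca1, the cholesterol efflux transporter gene, had 9.84 and 9.71 in LPS/IL4/IL13, against 7.91 and 7.95 in IFN/LPS, 10.05 and 10.08 in IL4/IL13 and 11.32 and 11.30 in Control. The combination lay between IFN/LPS and IL4/IL13 (contrast 3.09 ± 0.11, adjusted p = 1.16e-08). Ssh2, a cofilin phosphatase gene, had a contrast of 2.86 ± 0.15, adjusted p = 1.95e-07, and Lhfpl2 one of 3.36 ± 0.16, adjusted p = 1.01e-07.

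Il6ra, which encodes the ligand-binding chain of the IL-6 receptor, followed another order. Its log2 signals were 10.76 and 10.46 in LPS/IL4/IL13, against 7.63 and 7.73 in IFN/LPS, 10.58 and 10.57 in IL4/IL13 and 10.60 and 10.52 in Control. Only IFN/LPS lowered the gene, and the combination matched IL4/IL13 and Control (contrast 2.92 ± 0.14, adjusted p = 1.05e-07). Hip1 and Kcnk13, a potassium channel gene, were also lowered by IFN/LPS and highest in the combination, with contrasts of 2.57 ± 0.13 and 2.70 ± 0.17.

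**Figure D3:**
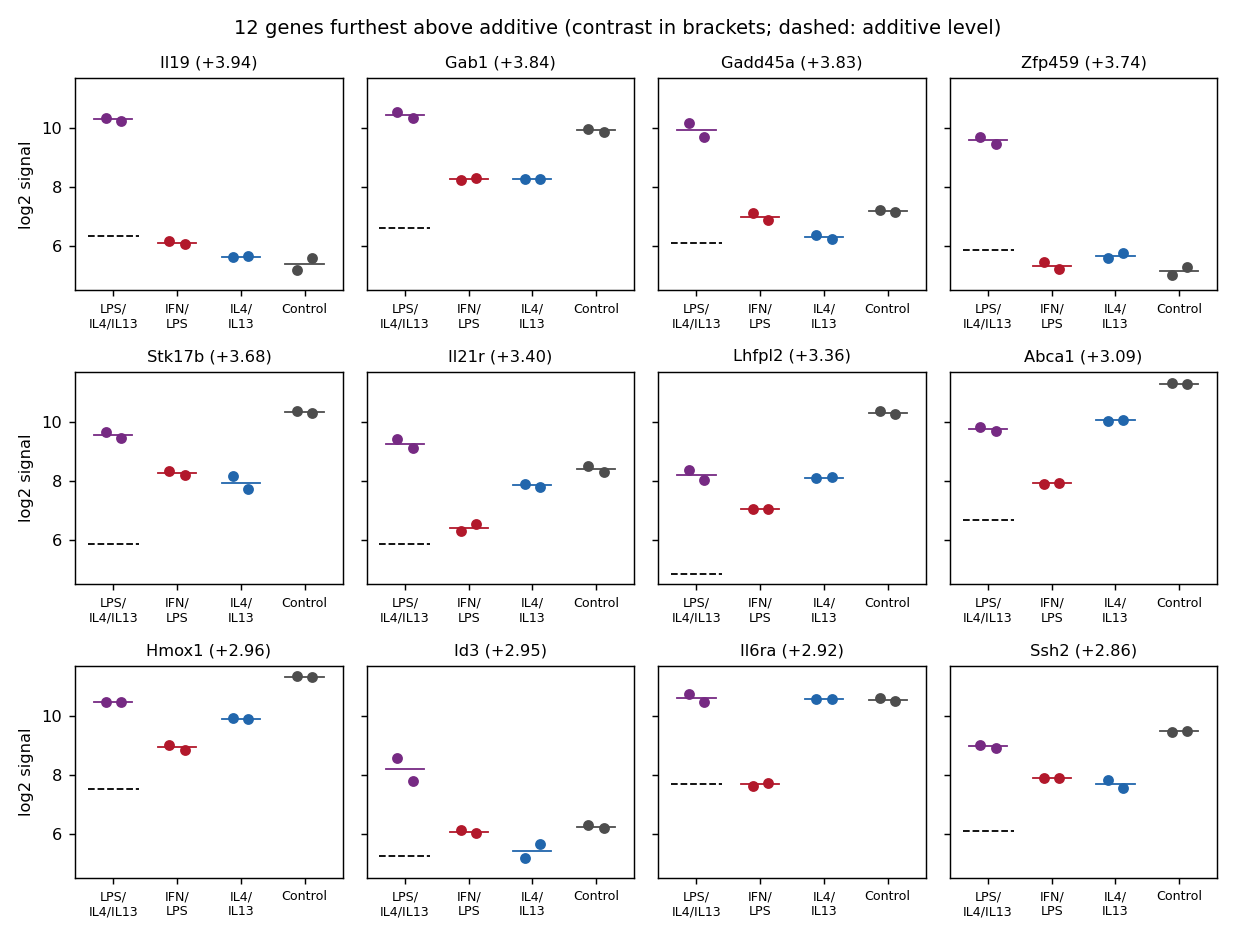
Log2 signal of the 12 genes with the highest contrasts; each point is 1 array, bars are group means of 2 arrays, and the dashed line marks the additive level. In all 12 panels both LPS/IL4/IL13 points lie above the dashed line.

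The largest departures below the sum included genes of both programs. Il12b, which encodes the p40 subunit shared by IL-12 and IL-23, had log2 signals of 6.49 and 6.59 in LPS/IL4/IL13, against 12.29 and 12.31 in IFN/LPS, 5.55 and 5.41 in IL4/IL13 and 5.30 and 5.35 in Control. It was high under IFN/LPS only, and the combination lay nearer to the groups without LPS (contrast -5.92 ± 0.14, adjusted p = 1.02e-09). Against IFN/LPS the combination differed by -5.76 ± 0.10, adjusted p = 2.57e-11. Retnla, which encodes RELM-alpha and marks alternative activation in mice, had 4.39 and 4.60 in LPS/IL4/IL13, against 4.99 and 4.29 in IFN/LPS, 10.15 and 10.33 in IL4/IL13 and 4.67 and 4.70 in Control. It was high under IL4/IL13 only, and the combination did not stand above Control (contrast -5.70 ± 0.26, adjusted p = 9.35e-08). Against IL4/IL13 the combination differed by -5.74 ± 0.19, adjusted p = 2.17e-10.

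Kynu, which encodes the tryptophan-breakdown enzyme kynureninase, had the lowest contrast. Its log2 signals were 6.70 and 6.56 in LPS/IL4/IL13, against 8.45 and 8.59 in IFN/LPS, 9.27 and 9.02 in IL4/IL13 and 5.09 and 5.05 in Control. Each separate treatment raised it strongly and the combination raised it less than either did, 62.5-fold under the additive level (contrast -5.96 ± 0.16, adjusted p = 1.83e-09). Dnase1l3, a secreted DNase gene, had 5.75 and 5.81 in LPS/IL4/IL13, against 9.16 and 9.35 in IFN/LPS, 6.86 and 6.97 in IL4/IL13 and 4.90 and 4.85 in Control, with a contrast of -5.52 ± 0.15, adjusted p = 1.83e-09. Tcf7l2, a transcription factor of the Wnt pathway, had 8.38 and 8.61 in LPS/IL4/IL13, against 10.38 and 10.41 in IFN/LPS, 10.50 and 10.48 in IL4/IL13 and 8.62 and 8.51 in Control. Both separate treatments raised Tcf7l2 and the combination stood at the Control level (contrast -3.82 ± 0.13, adjusted p = 8.39e-09). Ppargc1b, a coactivator of mitochondrial genes induced through STAT6, had 6.35 and 6.19 in LPS/IL4/IL13, against 7.63 and 7.84 in IFN/LPS, 9.04 and 8.91 in IL4/IL13 and 6.35 and 6.36 in Control, again with the combination at the Control level (contrast -4.08 ± 0.16, adjusted p = 1.78e-08). Ddhd1, a phospholipase gene, had a contrast of -3.60 ± 0.11, adjusted p = 3.75e-09.

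The other genes among the lowest contrasts differed in their order. Socs1, a feedback inhibitor of JAK and STAT signalling, had 10.18 and 10.42 in LPS/IL4/IL13, against 10.40 and 10.56 in IFN/LPS, 10.28 and 10.28 in IL4/IL13 and 6.72 and 6.36 in Control. All treated groups stood near one level, and the additive level of 14.22 lay beyond the highest value on the arrays (contrast -3.92 ± 0.17, adjusted p = 7.35e-08). Gda, the guanine deaminase gene, had 9.56 and 9.18 in LPS/IL4/IL13, against 9.70 and 9.55 in IFN/LPS, 9.89 and 9.73 in IL4/IL13 and 6.39 and 6.46 in Control and a contrast of -3.64 ± 0.17, adjusted p = 1.05e-07. Rasgrp1, a Ras activator, had 10.40 and 10.26 in LPS/IL4/IL13, against 8.06 and 8.20 in IFN/LPS, 11.34 and 11.32 in IL4/IL13 and 5.24 and 5.63 in Control; the combination lay between the separate treatments (contrast -3.70 ± 0.17, adjusted p = 1.01e-07), and its additive level of 14.03 was also out of range. Apol7c, of the apolipoprotein L family, had a contrast of -3.96 ± 0.25, adjusted p = 6.81e-07. Cytip, which encodes a cytohesin-interacting protein, was lowest in the combination, with 6.73 and 6.09 in LPS/IL4/IL13, against 10.72 and 10.80 in IFN/LPS, 8.56 and 8.25 in IL4/IL13 and 9.10 and 8.98 in Control. Both combination arrays lay below the other 6 (contrast -3.72 ± 0.24, adjusted p = 8.22e-07).

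**Figure D4:**
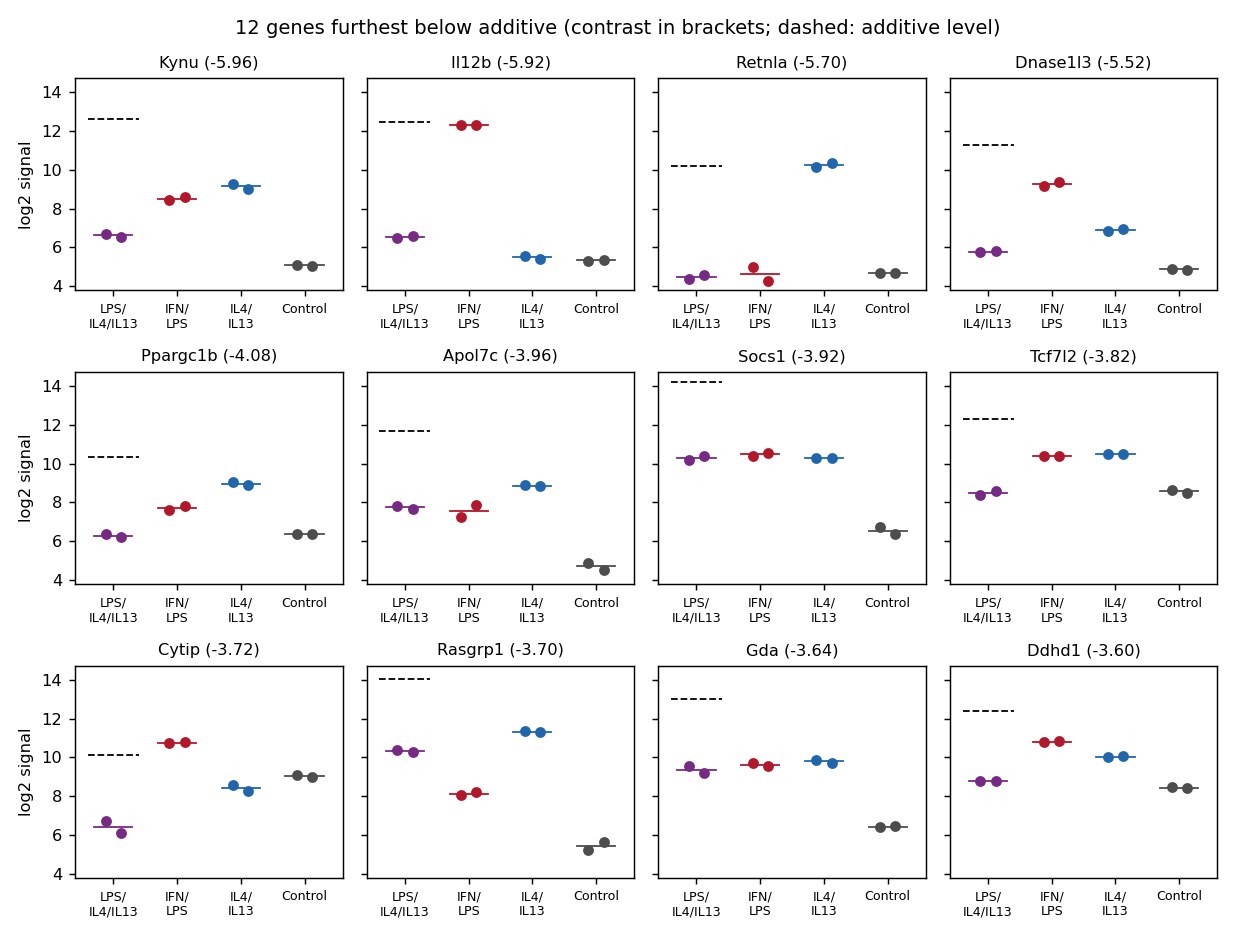
Log2 signal of the 12 genes with the lowest contrasts; each point is 1 array, bars are group means of 2 arrays, and the dashed line marks the additive level. In all 12 panels both LPS/IL4/IL13 points lie below the dashed line, and for Retnla, Ppargc1b and Tcf7l2 they lie close to Control.

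Promoter sequences from RefSeq (GRCm38.p6, 250 bases before to 50 after a gene start) were searched for the genes with the 12 highest and 12 lowest contrasts. These are a small part of the 4004 called genes. The motifs, read on both strands, were TTC and GAA with any 4 bases between them (the STAT6 spacing), TTC and GAA with any 3 bases between (the GAS spacing of other STATs), GAAA and GAAA with any 2 bases between (an interferon-stimulated response element), and GGGA and TTTCC with any 1 base between (an NF-kB site). A match is a description of letters. A window was found for 11 of the 12 highest and 9 of the 12 lowest genes. The STAT6 spacing was matched in 0 and 2 of these, the GAS spacing in 3 and 1, the interferon element in 1 and 3, and the NF-kB site in 0 and 0. Among all 27025 genes with a promoter window the shares with a match were 8.01%, 9.55%, 3.99% and 0.466%, and among all 32851 windows they were 6.95%, 8.3%, 3.44% and 0.411%. Windows of 3 of the genes with a match are shown. Matches not shown are the GAS spacing in Gab1, Zfp459 and Rasgrp1 and the interferon element in Cytip. Apol7c, also not shown, holds a STAT6 spacing and interferon elements. Capitals mark the matches: in Il19 (chr1:130940066-130940365, minus strand) a GAS spacing and an interferon element, in Retnla (chr16:48842359-48842658, plus strand) a STAT6 spacing, and in Socs1 (chr16:10785487-10785786, minus strand) 2 overlapping interferon elements.
Il19: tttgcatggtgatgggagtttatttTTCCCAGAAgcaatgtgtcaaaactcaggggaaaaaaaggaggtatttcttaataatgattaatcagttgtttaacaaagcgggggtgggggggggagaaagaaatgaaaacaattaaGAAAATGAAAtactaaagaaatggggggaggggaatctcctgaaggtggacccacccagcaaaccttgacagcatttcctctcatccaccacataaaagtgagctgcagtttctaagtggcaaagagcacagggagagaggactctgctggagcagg
Retnla: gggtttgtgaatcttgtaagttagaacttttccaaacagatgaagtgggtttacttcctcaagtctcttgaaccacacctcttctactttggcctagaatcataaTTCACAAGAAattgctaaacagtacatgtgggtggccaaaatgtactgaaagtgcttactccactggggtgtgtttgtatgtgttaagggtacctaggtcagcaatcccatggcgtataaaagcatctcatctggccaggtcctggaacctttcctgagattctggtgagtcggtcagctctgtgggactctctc
Socs1: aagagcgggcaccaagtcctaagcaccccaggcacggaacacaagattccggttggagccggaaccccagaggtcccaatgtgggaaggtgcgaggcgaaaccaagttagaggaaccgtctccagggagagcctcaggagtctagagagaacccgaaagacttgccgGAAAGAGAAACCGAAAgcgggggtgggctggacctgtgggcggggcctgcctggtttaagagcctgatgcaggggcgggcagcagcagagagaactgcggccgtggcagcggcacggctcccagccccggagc

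Gene lists of macrophage pathways were then read beside the shares over all genes, 13.2% above and 6.87% below the sum. The share above was larger among bright genes, with 600 of 1994 in decile 8 by mean signal and 14 of 1995 in the dimmest. Whether a list differed from genes of like signal was not tested. Among inflammatory cytokine genes 3 of 20 lay above and 8 below, with a list median of -0.05. Besides Il12b, those below were led by Tnfsf15, a TNF family ligand (contrast -3.18 ± 0.16, adjusted p = 1.86e-07), and Il6. The signals of Il6, a pyrogenic cytokine, were 10.02 and 9.52 in LPS/IL4/IL13, against 12.30 and 12.30 in IFN/LPS, 3.52 and 3.57 in IL4/IL13 and 3.41 and 3.40 in Control. IL4/IL13 alone left Il6 at the Control level, and the combination stood far above Control and below IFN/LPS (contrast -2.67 ± 0.20, adjusted p = 2e-06). Il12a, which encodes the p35 partner of p40 in IL-12, had group means of 7.40 in LPS/IL4/IL13, 9.11 in IFN/LPS, 6.42 in IL4/IL13 and 5.86 in Control (contrast -2.28 ± 0.17). Csf1, the macrophage growth factor gene, had a contrast of -2.01 ± 0.12 and Il27 one of -1.06 ± 0.17.

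Il1b, Il10 and Osm lay above the sum, and Tnf was not called. Il1b, the inflammatory cytokine processed by inflammasomes, had 12.54 and 12.54 in LPS/IL4/IL13, against 12.41 and 12.48 in IFN/LPS, 5.62 and 6.03 in IL4/IL13 and 7.96 and 7.91 in Control. IL4/IL13 alone lowered Il1b, and the combination stood at the level of IFN/LPS (contrast 2.20 ± 0.16, adjusted p = 1.8e-06). Il10, an anti-inflammatory cytokine gene, had 11.94 and 12.10 in LPS/IL4/IL13, against 11.02 and 11.05 in IFN/LPS, 7.37 and 7.04 in IL4/IL13 and 7.07 and 6.67 in Control. It was highest in the combination (contrast 0.65 ± 0.19, adjusted p = 0.0341), a call lost without Control array 1 (contrast 0.45), either IFN/LPS array (0.64 and 0.66), IL4/IL13 array 2 (0.48) or LPS/IL4/IL13 array 2 (0.57), and also without the variance trend or with all probe sets tested. Osm, an IL-6 family cytokine gene, had a contrast of 1.22 ± 0.13, adjusted p = 3.8e-05. Tnf had 12.15 and 12.30 in LPS/IL4/IL13, against 12.94 and 12.93 in IFN/LPS, 7.64 and 7.46 in IL4/IL13 and 8.25 and 8.29 in Control, with a contrast of 0.01 ± 0.12, adjusted p = 0.963.

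Among chemokine genes 11 of 21 lay above the sum and 3 below, with a median of 0.70. Cxcl3, a neutrophil attractant, had 8.20 and 7.74 in LPS/IL4/IL13, against 5.49 and 5.31 in IFN/LPS, 5.13 and 5.12 in IL4/IL13 and 4.97 and 4.85 in Control. Only the combination stood high (contrast 2.36 ± 0.21, adjusted p = 7.42e-06). Cxcl2, of the same family, had a contrast of 1.78 ± 0.22, adjusted p = 0.000105, with Ccl4 at 1.40 ± 0.13 and Ccl3 at 1.11 ± 0.08. Ccl24, an eosinophil attractant induced through STAT6, had 11.90 and 11.70 in LPS/IL4/IL13, against 8.64 and 8.71 in IFN/LPS, 7.82 and 7.74 in IL4/IL13 and 5.76 and 5.54 in Control. Each separate treatment raised Ccl24 and the combination exceeded the sum of both (contrast 1 ± 0.15, adjusted p = 0.000563). Ccl17, another type 2 chemokine gene, had a contrast of 0.78 ± 0.24, adjusted p = 0.0378, which was no longer called without Control array 2 (0.46), either IFN/LPS array (0.74 and 0.84), either IL4/IL13 array (0.73 and 0.84) or LPS/IL4/IL13 array 1 (0.73), and also without the variance trend or with all probe sets tested. Ccl22, a ligand of the same receptor CCR4, went below the sum, with 9.12 and 9.17 in LPS/IL4/IL13, against 10.46 and 10.54 in IFN/LPS, 5.69 and 5.80 in IL4/IL13 and 5.67 and 5.61 in Control. It was high under IFN/LPS and less so in the combination (contrast -1.46 ± 0.13, adjusted p = 1.15e-05).

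The interferon-linked chemokines and the monocyte attractants differed among themselves. Cxcl9 had a contrast of -0.54 ± 0.21, adjusted p = 0.103, and Ccl5 one of 0.02 ± 0.09, adjusted p = 0.869 at group means of 13.14 in LPS/IL4/IL13, 13.20 in IFN/LPS, 9.60 in IL4/IL13 and 9.68 in Control. Cxcl10 had 13.35 and 13.40 in LPS/IL4/IL13, against 13.50 and 13.46 in IFN/LPS, 7.03 and 7.27 in IL4/IL13 and 8.30 and 8.14 in Control and lay above the sum (contrast 0.96 ± 0.13, adjusted p = 0.000189); on linear signal that contrast was -645.4, of the opposite sign. Ccl7, a monocyte attractant, had 13.05 and 13.15 in LPS/IL4/IL13, against 11.98 and 12.05 in IFN/LPS, 11.02 and 11.09 in IL4/IL13 and 6.83 and 7.01 in Control. The combination was the highest group, yet below the additive log2 level of 16.15, which is beyond the array range (contrast -3.05 ± 0.11, adjusted p = 1.36e-08), and on linear signal the contrast was 2638.3. Ccl2 had a contrast of -1.33 ± 0.18, or 2429.2 on linear signal, and its additive level of 13.99 was likewise out of range.

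Cytokine receptor genes were above the sum in 11 of 22 and below in 5, with a median of 0.31. Il7r had 11.26 and 11.22 in LPS/IL4/IL13, against 10.58 and 10.57 in IFN/LPS, 10.27 and 10.22 in IL4/IL13 and 11.53 and 11.46 in Control. Both separate treatments lowered it and the combination stood nearer to Control (contrast 1.92 ± 0.09, adjusted p = 1.06e-07). The interferon receptor genes Ifnar1 (1.56 ± 0.10), Ifngr1 (0.90 ± 0.10), Ifngr2 (0.64 ± 0.08) and Ifnar2 (0.58 ± 0.08) all lay above, as did the IL-6 signal transducer gene Il6st (1.34 ± 0.11) and the IL4/IL13 receptor genes Il13ra1 (1.06 ± 0.14) and Il4ra (0.42 ± 0.09). Il13ra1 had group means of 10.31 in LPS/IL4/IL13, 10.68 in IFN/LPS, 6.08 in IL4/IL13 and 7.50 in Control, lowered by IL4/IL13 and raised in both groups with LPS, and on linear signal its contrast was -246.7. Il18rap, a subunit of the IL-18 receptor, was high under IFN/LPS only, with 5.88 and 5.90 in LPS/IL4/IL13, against 8.01 and 8.28 in IFN/LPS, 5.22 and 5.38 in IL4/IL13 and 5.48 and 5.22 in Control (contrast -2.20 ± 0.18, adjusted p = 5.1e-06). Il10ra had a contrast of 0.07 ± 0.10, adjusted p = 0.661.

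**Figure D5:**
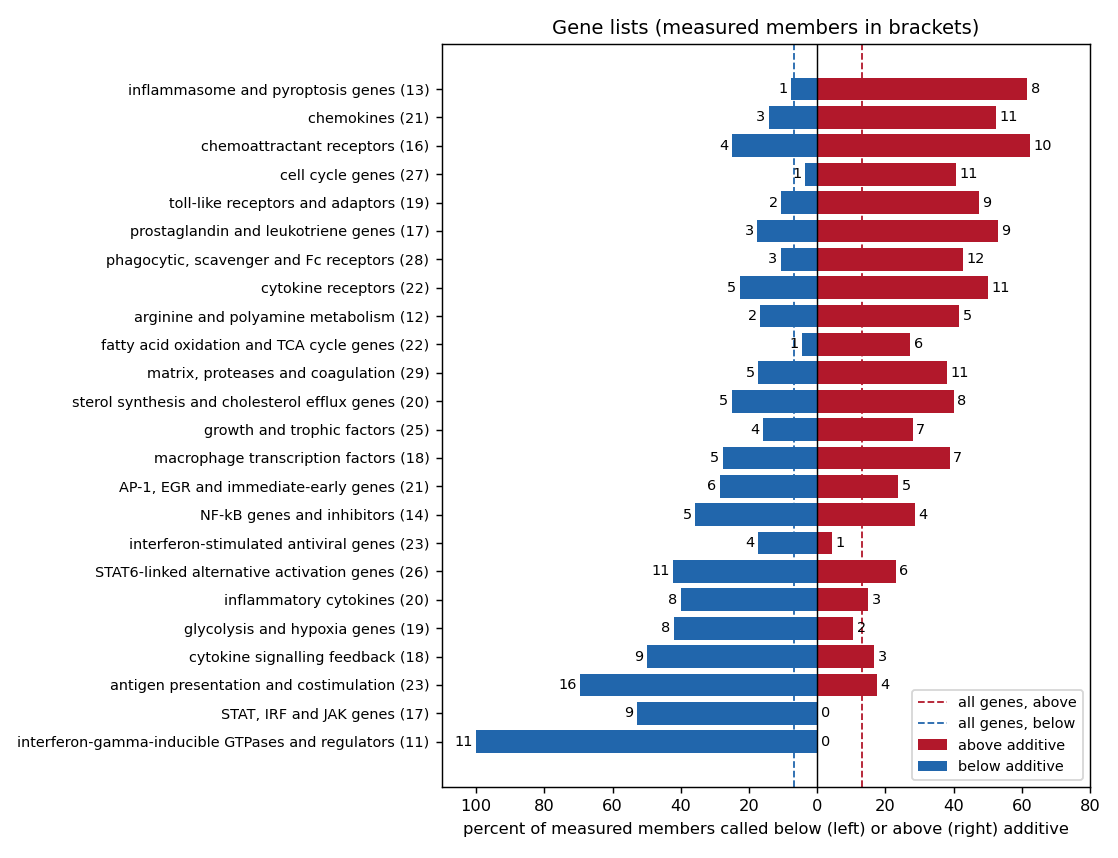
Percent of the measured members of each gene list called above (right, red) or below (left, blue) the sum, with counts at the bar ends and dashed lines at the shares over all genes (13.2% above, 6.87% below). The interferon-gamma-inducible list has 11 of 11 members below, and the inflammasome, chemokine and chemoattractant receptor lists lie mostly above.

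Signal transducers and transcription factors of the JAK, STAT and IRF families were below the sum in 9 of 17 and above in 0, with a median of -0.55. Irf4, a factor induced through STAT6, had 6.26 and 5.96 in LPS/IL4/IL13, against 6.11 and 5.89 in IFN/LPS, 9.65 and 9.59 in IL4/IL13 and 6.76 and 6.37 in Control. It was high under IL4/IL13 only and stood at or under Control in the combination (contrast -2.94 ± 0.21, adjusted p = 1.4e-06). Irf1, which drives IFN gamma responses, had 11.28 and 11.11 in LPS/IL4/IL13, against 12.31 and 12.36 in IFN/LPS, 10.30 and 10.38 in IL4/IL13 and 9.18 and 9.10 in Control. All treatments raised Irf1 and IFN/LPS raised it most (contrast -2.34 ± 0.11, adjusted p = 1.01e-07). With the mean over its probe sets, the Irf1 contrast was smaller in size, at -1.64 (limma adjusted p = 7.67e-06). Stat4 had 5.67 and 5.77 in LPS/IL4/IL13, against 8.90 and 9.14 in IFN/LPS, 5.08 and 5.21 in IL4/IL13 and 6.62 and 6.37 in Control, high under IFN/LPS only (contrast -1.95 ± 0.18, adjusted p = 9.94e-06). Irf7 (-1.25 ± 0.11), Stat2 (-1.12 ± 0.12), Jak2 (-0.98 ± 0.14) and Irf8 (-0.87 ± 0.09) were also below. Stat6 itself had a contrast of 0.08 ± 0.10, adjusted p = 0.635, and Jak1 one of 0.20 ± 0.11, adjusted p = 0.209.

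NF-kB genes and their inhibitors were split, 4 above and 5 below of 14, and 4 and 2 with median centring of the arrays. Rel, the c-Rel subunit, had 12.31 and 12.27 in LPS/IL4/IL13, against 12.67 and 12.70 in IFN/LPS, 11.76 and 11.73 in IL4/IL13 and 10.69 and 10.77 in Control, raised by each treatment (contrast -1.41 ± 0.08, adjusted p = 3.12e-07). Nfkbiz, which encodes the nuclear regulator IkB-zeta, was lowered by IL4/IL13 and raised by both treatments with LPS, at 10.94 and 11.01 in LPS/IL4/IL13, against 11.77 and 11.71 in IFN/LPS, 7.10 and 6.97 in IL4/IL13 and 9.11 and 9.10 in Control. Its contrast was 1.30 ± 0.11, adjusted p = 7.29e-06 on the log2 scale and -988.5 on linear signal. Nfkbid, another nuclear IkB gene, had a contrast of 0.80 ± 0.16, adjusted p = 0.00359, and Tnip3 one of -0.24 ± 0.09, adjusted p = 0.108.

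Immediate-early genes were split as well, 5 above and 6 below of 21. Myc, the growth-associated transcription factor gene, had 9.87 and 10.04 in LPS/IL4/IL13, against 6.75 and 6.87 in IFN/LPS, 8.41 and 8.68 in IL4/IL13 and 7.42 and 7.52 in Control. It lay below Control under IFN/LPS, above it under IL4/IL13 and highest in the combination (contrast 2.07 ± 0.16, adjusted p = 2.84e-06). Fos had 8.31 and 8.15 in LPS/IL4/IL13, against 7.04 and 7.27 in IFN/LPS, 6.66 and 6.68 in IL4/IL13 and 8.33 and 8.12 in Control. Both separate treatments lowered Fos and the combination stood at the Control level (contrast 2.63 ± 0.16, adjusted p = 6.45e-07). Nr4a3, an orphan nuclear receptor gene, had 5.61 and 5.58 in LPS/IL4/IL13, against 8.17 and 8.27 in IFN/LPS, 5.14 and 4.87 in IL4/IL13 and 5.38 and 4.98 in Control, high under IFN/LPS only (contrast -2.45 ± 0.20, adjusted p = 4.65e-06), and its relative Nr4a2 had a contrast of -1.34 ± 0.14. Atf3 had a contrast of -0.22 ± 0.09, adjusted p = 0.106.

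Feedback regulators of cytokine signalling lay below the sum in 9 of 18 and above in 3, with a median of -0.26. After Socs1, the lowest were Nfil3, a transcriptional repressor gene, with 10.49 and 10.45 in LPS/IL4/IL13, against 10.53 and 10.42 in IFN/LPS, 10.23 and 10.19 in IL4/IL13 and 7.23 and 7.18 in Control, and Cish, an inhibitor of STAT5 signalling. The 3 treated groups of Nfil3 stood at nearly one level (contrast -3.01 ± 0.11, adjusted p = 1.47e-08). Cish had 10.29 and 10.25 in LPS/IL4/IL13, against 9.26 and 9.16 in IFN/LPS, 8.81 and 8.86 in IL4/IL13 and 5.50 and 5.44 in Control. The combination was its highest group and still under the log2 sum (contrast -2.31 ± 0.13, adjusted p = 2.38e-07), while on linear signal the contrast was 229.9. Socs2 had a contrast of -2.28 ± 0.21. Socs3, which restrains IL-6 signalling, had 12.12 and 11.99 in LPS/IL4/IL13, against 11.62 and 11.68 in IFN/LPS, 6.71 and 6.66 in IL4/IL13 and 6.35 and 6.63 in Control and a contrast of 0.21 ± 0.14, adjusted p = 0.342, and Zfp36, an mRNA-decay factor gene, had one of 0.04 ± 0.11, adjusted p = 0.83. With the mean over its probe sets, the Socs3 contrast was 0.53 (limma adjusted p = 0.0363). Irak3, a brake on Toll-like receptor signalling, lay above (1.80 ± 0.11), as did the phosphatase genes Dusp6 (1.34 ± 0.16) and Dusp1 (1.27 ± 0.11).

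All 11 measured IFN-gamma-inducible GTPases and regulators lay below the sum, with a median of -2.18. Gbp4, a guanylate-binding protein gene, had 10.84 and 10.76 in LPS/IL4/IL13, against 12.62 and 12.65 in IFN/LPS, 6.95 and 6.96 in IL4/IL13 and 5.04 and 5.66 in Control. IL4/IL13 raised it somewhat, IFN/LPS raised it most, and the combination lay between (contrast -3.44 ± 0.22, adjusted p = 6.61e-07). Gbp9 had 10.88 and 10.49 in LPS/IL4/IL13, against 11.82 and 11.80 in IFN/LPS, 8.95 and 8.77 in IL4/IL13 and 6.95 and 6.73 in Control (contrast -3.14 ± 0.18, adjusted p = 3.01e-07). Gbp8 had a contrast of -2.92 ± 0.17, adjusted p = 4e-07, and Gbp11 (-2.44 ± 0.15), Gbp5 (-2.34 ± 0.12) and Iigp1 (-2.18 ± 0.17) followed. For Gbp4, Gbp9, Gbp5 and Iigp1 the additive level lay above the highest value of any named gene. IFN gamma was absent from the combination, and its absence cannot be told apart from the presence of IL4/IL13. Probes of such near-identical gene families may record more than 1 member, which was not tested.

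Of the interferon-stimulated antiviral genes 1 of 23 lay above and 4 below, with a median of -0.02. Zbp1, a nucleic acid sensor, had 11.87 and 11.95 in LPS/IL4/IL13, against 11.94 and 11.84 in IFN/LPS, 9.83 and 9.77 in IL4/IL13 and 8.43 and 8.20 in Control. It had the largest departure of the list, and its levels in both groups with LPS overlapped (contrast -1.46 ± 0.12, adjusted p = 5.32e-06). Rsad2, which encodes the antiviral enzyme viperin, had 13.08 and 13.08 in LPS/IL4/IL13, against 13.08 and 13.06 in IFN/LPS, 8.43 and 8.27 in IL4/IL13 and 9.20 and 8.86 in Control and a contrast of 0.69 ± 0.14, adjusted p = 0.0044. Oas3 had a contrast of -0.80 ± 0.15, adjusted p = 0.0029. Oasl2 had -0.20 ± 0.09, adjusted p = 0.162, and Mx1 had 0.24 ± 0.16, adjusted p = 0.322 with group means of 11.70 in LPS/IL4/IL13, 11.82 in IFN/LPS, 6.20 in IL4/IL13 and 6.56 in Control.

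Genes linked to STAT6 and alternative activation were below the sum in 11 of 26 and above in 6, with a median of -0.29. Arg1, the arginase that competes with nitric oxide synthase for arginine, had 10.72 and 10.38 in LPS/IL4/IL13, against 5.37 and 5.45 in IFN/LPS, 8.58 and 8.46 in IL4/IL13 and 5 and 5.14 in Control. IL4/IL13 raised Arg1 far more than IFN/LPS did, and the combination stood highest (contrast 1.69 ± 0.17, adjusted p = 2.75e-05), 3.23-fold above the additive level. Mrc1, the mannose receptor gene, had 12.31 and 12.09 in LPS/IL4/IL13, against 10.90 and 11 in IFN/LPS, 12.47 and 12.50 in IL4/IL13 and 11.80 and 11.73 in Control (contrast 0.53 ± 0.11, adjusted p = 0.00381). Chil3, a chitinase-like protein gene, had a contrast of -0.14 ± 0.24, adjusted p = 0.736. Against these, Rnase2a (-2.88 ± 0.21), Mgl2 (-2.35 ± 0.20) and Clec10a (-1.32 ± 0.21) joined Retnla below the sum; Mgl2 had group means of 5.93 in LPS/IL4/IL13, 6.18 in IFN/LPS, 8.44 in IL4/IL13 and 6.34 in Control. Pdcd1lg2, which encodes the checkpoint ligand PD-L2, had a contrast of -1.66 ± 0.15 although the combination was its highest group, at 10.62 in LPS/IL4/IL13, 7.06 in IFN/LPS, 10.06 in IL4/IL13 and 4.84 in Control, and on linear signal the contrast was 400.3.

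Tarm1 and Slc7a2 were raised by every treatment and most by the combination. Tarm1, an activating receptor gene of myeloid cells, had 13.02 and 13.13 in LPS/IL4/IL13, against 11.92 and 11.94 in IFN/LPS, 11.55 and 11.25 in IL4/IL13 and 6.52 and 6.93 in Control. Its additive level of 16.60 was out of the array range (contrast -3.53 ± 0.18, adjusted p = 1.41e-07), and on linear signal the contrast was 2123.2. Tfec, a transcription factor gene, had a contrast of -0.30 ± 0.12, adjusted p = 0.104. Slc7a2, a cationic amino acid transporter gene, had 12.51 and 12.43 in LPS/IL4/IL13, against 11.40 and 11.40 in IFN/LPS, 10.58 and 10.52 in IL4/IL13 and 6.28 and 6.14 in Control. Its contrast was -3.27 ± 0.11, adjusted p = 7.96e-09 with an additive level of 15.74, and on linear signal it was 1547.8.

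Arginine and polyamine genes were above the sum in 5 of 12 and below in 2. Arg2, the mitochondrial arginase gene, had 10.58 and 10.45 in LPS/IL4/IL13, against 8.83 and 8.40 in IFN/LPS, 5.96 and 5.60 in IL4/IL13 and 6.45 and 6.24 in Control. The combination exceeded IFN/LPS although IL4/IL13 alone lowered the gene (contrast 2.46 ± 0.22, adjusted p = 8.83e-06). Nos2, the inducible nitric oxide synthase gene, had 12.34 and 12.44 in LPS/IL4/IL13, against 12.76 and 12.73 in IFN/LPS, 5.76 and 6.01 in IL4/IL13 and 5.73 and 5.60 in Control. Its level in the combination was close under that of IFN/LPS (contrast -0.57 ± 0.14, adjusted p = 0.0132), a departure not called without Control array 2 (-0.51) or IL4/IL13 array 2 (-0.45). Azin1 (1.20 ± 0.21), which stabilises the polyamine enzyme ornithine decarboxylase, and Gch1 (0.74 ± 0.17), which makes the cofactor of nitric oxide synthase, lay above. Odc1 itself had a contrast of 0.06 ± 0.13, adjusted p = 0.803, and Sat1 one of -0.18 ± 0.11, adjusted p = 0.282.

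Growth and trophic factor genes were above the sum in 7 of 25 and below in 4. Hbegf, a ligand of the EGF receptor, had 11.66 and 11.48 in LPS/IL4/IL13, against 8.39 and 8.38 in IFN/LPS, 7.49 and 7.43 in IL4/IL13 and 6.38 and 6.30 in Control. Each separate treatment raised it, and the combination stood 4.18-fold above the additive level (contrast 2.06 ± 0.13, adjusted p = 7.84e-07). Pdgfb had 8.26 and 8.44 in LPS/IL4/IL13, against 7.40 and 7.59 in IFN/LPS, 8.73 and 8.81 in IL4/IL13 and 9.84 and 9.79 in Control, lowered by each treatment (contrast 1.90 ± 0.14, adjusted p = 2.29e-06). Hgf (1.58 ± 0.15) and Pgf, a placental growth factor gene (1.24 ± 0.22), also lay above. Bmp2, a bone morphogenetic protein gene, had 6.86 and 6.77 in LPS/IL4/IL13, against 9.04 and 9.21 in IFN/LPS, 9.44 and 9.24 in IL4/IL13 and 8.76 and 8.66 in Control. Only the combination was low (contrast -2.94 ± 0.15, adjusted p = 1.41e-07). Edn1, the endothelin gene, had a contrast of 0.52 ± 0.13, adjusted p = 0.0153, not called without Control array 2 (0.43) or IFN/LPS array 1 (0.48). Igf1 had 11.90 and 12.03 in LPS/IL4/IL13, against 11.52 and 11.58 in IFN/LPS, 12.67 and 12.48 in IL4/IL13 and 12.14 and 12.20 in Control, with a contrast of 0.01 ± 0.10, adjusted p = 0.957, and Inhba, an activin subunit gene, had one of 0.15 ± 0.16, adjusted p = 0.553.

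Matrix, protease and coagulation genes lay above the sum in 11 of 29 and below in 5. Mmp14, a membrane-bound matrix metalloproteinase gene, had 11.19 and 11.16 in LPS/IL4/IL13, against 9.41 and 9.39 in IFN/LPS, 5.96 and 6.20 in IL4/IL13 and 6.15 and 6.16 in Control. IL4/IL13 alone left it at Control, and the combination exceeded IFN/LPS (contrast 1.85 ± 0.14, adjusted p = 2.55e-06). Mmp19 had 9.05 and 9.01 in LPS/IL4/IL13, against 7.96 and 7.91 in IFN/LPS, 7.69 and 7.65 in IL4/IL13 and 8.45 and 8.35 in Control, lowered by each separate treatment and highest in the combination (contrast 1.82 ± 0.13, adjusted p = 1.28e-06). Timp1, a metalloproteinase inhibitor gene, had a contrast of 1.52 ± 0.15. F3, the tissue factor gene that starts coagulation, had 7.80 and 8.05 in LPS/IL4/IL13, against 9.68 and 9.76 in IFN/LPS, 4.83 and 5.12 in IL4/IL13 and 4.78 and 4.77 in Control, with the combination between IFN/LPS and Control (contrast -2 ± 0.18, adjusted p = 8.26e-06). Adam17, a sheddase gene, had a contrast of 0.38 ± 0.16, adjusted p = 0.125.

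Prostaglandin and leukotriene genes were above the sum in 9 of 17 and below in 3. Ptges, the inducible prostaglandin E synthase gene, had 11.09 and 11.16 in LPS/IL4/IL13, against 9.69 and 9.31 in IFN/LPS, 5.44 and 5.74 in IL4/IL13 and 5.99 and 5.78 in Control. The combination exceeded IFN/LPS (contrast 1.92 ± 0.20, adjusted p = 2.94e-05). Ptgs2, the upstream cyclooxygenase gene, had group means of 13.20 in LPS/IL4/IL13, 13.30 in IFN/LPS, 7.44 in IL4/IL13 and 6.92 in Control, with a contrast of -0.61 ± 0.13, adjusted p = 0.00546 and an additive level above the array range. Ptger2, a prostaglandin E receptor gene, had a contrast of 1.58 ± 0.17, adjusted p = 4.59e-05, and its relative Ptger4 one of -0.90 ± 0.13, adjusted p = 0.000387. Hpgds, the haematopoietic prostaglandin D synthase gene, had 8.87 and 8.86 in LPS/IL4/IL13, against 9.46 and 9.21 in IFN/LPS, 9.42 and 9.31 in IL4/IL13 and 11.27 and 11.37 in Control. All treatments lowered Hpgds, the combination most (contrast 1.48 ± 0.13, adjusted p = 9.87e-06). Ptgir had a contrast of 0.04 ± 0.15, adjusted p = 0.866.

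Chemoattractant receptor genes departed in 14 of 16, with 10 above and 4 below. Ccr3, the eotaxin receptor gene whose ligands include CCL24, had 9.91 and 10.02 in LPS/IL4/IL13, against 8.55 and 8.23 in IFN/LPS, 6.99 and 6.67 in IL4/IL13 and 7.79 and 7.82 in Control. The combination was highest and IL4/IL13 lowest (contrast 2.55 ± 0.18, adjusted p = 1.64e-06). Ccr2, the monocyte chemokine receptor gene, had a contrast of 1.72 ± 0.18 at group means of 7.92 in LPS/IL4/IL13, 8.35 in IFN/LPS, 6.56 in IL4/IL13 and 8.72 in Control. Ccr7, which guides cells to lymph nodes, had 6.78 and 6.94 in LPS/IL4/IL13, against 9.08 and 9.12 in IFN/LPS, 6.13 and 6.45 in IL4/IL13 and 6.02 and 6.31 in Control, high under IFN/LPS only (contrast -2.37 ± 0.19, adjusted p = 3.73e-06). P2ry13, a nucleotide receptor gene, had 8.33 and 8.52 in LPS/IL4/IL13, against 11.18 and 11.23 in IFN/LPS, 6.64 and 6.65 in IL4/IL13 and 7.24 and 7.24 in Control (contrast -2.18 ± 0.13, adjusted p = 5.34e-07), and its relatives P2ry12 (-1.52 ± 0.17) and P2ry14 (-0.92 ± 0.14) were below as well. Ccrl2 had a contrast of 0.12 ± 0.12, adjusted p = 0.555.

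Phagocytic, scavenger and Fc receptor genes were above the sum in 12 of 28 and below in 3. The C-type lectin receptor genes Clec4d and Clec4e, which sense mycobacterial glycolipids, led. Clec4d had 11.50 and 11.35 in LPS/IL4/IL13, against 11.38 and 11.23 in IFN/LPS, 9.55 and 9.52 in IL4/IL13 and 11.57 and 11.53 in Control. IL4/IL13 alone lowered it, and the combination stood at the Control level (contrast 2.13 ± 0.11, adjusted p = 1.48e-07). Clec4e had a contrast of 1.99 ± 0.18, adjusted p = 1.06e-05. Stab1, a scavenger receptor gene lowered by every treatment, had 9.62 and 9.47 in LPS/IL4/IL13, against 9.09 and 9.12 in IFN/LPS, 10.37 and 10.40 in IL4/IL13 and 11.76 and 11.78 in Control (contrast 1.82 ± 0.11, adjusted p = 3.95e-07). Olr1, an oxidised LDL receptor gene, had a contrast of -1.67 ± 0.14, adjusted p = 4.65e-06 with the combination as its highest group, at 12 in LPS/IL4/IL13, 11.28 in IFN/LPS, 7.22 in IL4/IL13 and 4.82 in Control, and on linear signal the contrast was 1504.1. C1qb had a contrast of -0.02 ± 0.07, adjusted p = 0.906, at group means between 12.98 and 13.16.

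Antigen presentation and costimulation genes were below the sum in 16 of 23 and above in 4, with a median of -0.73. Cd40, the receptor for T cell help, had 12.88 and 12.70 in LPS/IL4/IL13, against 13.22 and 13.20 in IFN/LPS, 10.66 and 10.73 in IL4/IL13 and 8 and 7.91 in Control. Each treatment raised Cd40, and the additive level of 15.95 was beyond the array range (contrast -3.16 ± 0.11, adjusted p = 7.96e-09). Cd86, a costimulatory ligand gene, had 11.12 and 10.96 in LPS/IL4/IL13, against 11.94 and 11.84 in IFN/LPS, 9.53 and 9.29 in IL4/IL13 and 8.15 and 8.01 in Control, and the combination lay between the separate treatments (contrast -2.18 ± 0.14, adjusted p = 7.43e-07). Cd274, the PD-L1 gene, had a contrast of -2 ± 0.12, adjusted p = 4e-07, also with an additive level out of range (14.67). Among the MHC class I genes Tap1 (-1.16 ± 0.10), Nlrc5 (-1.08 ± 0.14) and Psmb9 (-1.06 ± 0.11) were below, and B2m had -0.06 ± 0.07, adjusted p = 0.6. The MHC class II genes H2-Ab1 (0.64 ± 0.13), H2-Aa (0.62 ± 0.13) and H2-Eb1 (0.61 ± 0.12) were above, while H2-DMa (-0.96 ± 0.16), which loads class II molecules, and Ciita (-0.69 ± 0.16), their transcriptional activator, were below. The SLAM receptor gene Slamf1 was above (0.95 ± 0.17).

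Toll-like receptor genes and adaptors lay above the sum in 9 of 19 and below in 2. Tlr2, a receptor for bacterial lipoproteins, had 9.66 and 9.45 in LPS/IL4/IL13, against 8.45 and 8.43 in IFN/LPS, 8.16 and 8.05 in IL4/IL13 and 9.87 and 9.73 in Control. Both separate treatments lowered Tlr2, and the combination came close to Control (contrast 2.81 ± 0.14, adjusted p = 1.33e-07). Tlr13, a sensor of bacterial ribosomal RNA in mice, had 9.29 and 9.06 in LPS/IL4/IL13, against 8.18 and 8.27 in IFN/LPS, 10.14 and 10.12 in IL4/IL13 and 11.91 and 11.97 in Control, lowered everywhere but less than the sum in the combination (contrast 2.76 ± 0.13, adjusted p = 9.16e-08). Cd14, the LPS co-receptor gene, had 11.96 and 11.73 in LPS/IL4/IL13, against 11.31 and 11.19 in IFN/LPS, 9.93 and 9.91 in IL4/IL13 and 11.34 and 11.34 in Control. IL4/IL13 alone lowered Cd14, and it was highest in the combination (contrast 2.02 ± 0.11, adjusted p = 3.1e-07). Tlr4 had a contrast of 1.16 ± 0.14, adjusted p = 0.000126 at group means of 10.30 in LPS/IL4/IL13, 8.74 in IFN/LPS, 10.04 in IL4/IL13 and 9.64 in Control. Ticam2, the adaptor that links TLR4 to interferon induction, went the other way, lowest in the combination at 6.52 in LPS/IL4/IL13, 8.22 in IFN/LPS, 8.96 in IL4/IL13 and 9.01 in Control (contrast -1.65 ± 0.14, adjusted p = 4.59e-06). Ly96 had a contrast of -0.08 ± 0.13, adjusted p = 0.697.

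Inflammasome and pyroptosis genes were above the sum in 8 of 13 and below in 1, with a median of 0.79. Beside Il1b, Nlrc4, a sensor platform for bacterial flagellin, had 6.37 and 5.66 in LPS/IL4/IL13, against 5.45 and 5.11 in IFN/LPS, 6.19 and 6.20 in IL4/IL13 and 7.67 and 7.41 in Control. All treatments lowered Nlrc4 (contrast 2.08 ± 0.28, adjusted p = 0.000228). Naip2, a mouse sensor of bacterial secretion systems, had 10.34 and 10.12 in LPS/IL4/IL13, against 9.32 and 9.47 in IFN/LPS, 8.93 and 8.84 in IL4/IL13 and 9.64 and 9.60 in Control, highest in the combination (contrast 1.57 ± 0.13, adjusted p = 6.55e-06). Nlrp3 (0.79 ± 0.12, but -375.8 on linear signal), Aim2 (0.82 ± 0.13) and Casp1 (0.61 ± 0.15) also lay above. Pycard, the adaptor of these sensors, was below (-0.70 ± 0.12), and Casp4 had a contrast of 0.08 ± 0.16, adjusted p = 0.767.

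Glycolysis and hypoxia genes were below the sum in 8 of 19 and above in 2, with a median of -0.40. Pfkp, the platelet-type phosphofructokinase gene, had 10.63 and 10.59 in LPS/IL4/IL13, against 11.63 and 11.64 in IFN/LPS, 9.09 and 9.09 in IL4/IL13 and 8.77 and 8.88 in Control. IFN/LPS raised Pfkp most (contrast -1.29 ± 0.10, adjusted p = 4.2e-06). Hif1a, the hypoxia-inducible factor gene, had a contrast of -1.04 ± 0.13, adjusted p = 9.06e-05, with Hk3 (-0.81 ± 0.12) and Hk2 (-0.66 ± 0.20), which encode hexokinases, also below. Pfkfb3, which makes the activator of phosphofructokinase, went the other way, with 10.78 and 10.85 in LPS/IL4/IL13, against 10 and 9.99 in IFN/LPS, 7.17 and 6.88 in IL4/IL13 and 8.19 and 8.18 in Control. It was lowered by IL4/IL13 alone and was highest in the combination (contrast 1.98 ± 0.14, adjusted p = 1.64e-06). Aldoa had a contrast of 0.10 ± 0.08, adjusted p = 0.444.

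Fatty acid oxidation and TCA cycle genes departed in 7 of 22, 6 above and 1 below, with a median of 0.26. After quantile normalization 4 lay above and 1 below, with a median of 0.06. Fh1, the fumarase gene, had 8.70 and 8.47 in LPS/IL4/IL13, against 6.82 and 6.77 in IFN/LPS, 9.24 and 9.18 in IL4/IL13 and 8.96 and 8.86 in Control. IFN/LPS lowered it and the combination stood nearer to Control (contrast 1.49 ± 0.14, adjusted p = 1.57e-05). Acadm, an acyl-CoA dehydrogenase gene, had 8.46 and 8.04 in LPS/IL4/IL13, against 7.29 and 7.23 in IFN/LPS, 9.46 and 9.52 in IL4/IL13 and 9.96 and 9.80 in Control (contrast 1.38 ± 0.18, adjusted p = 0.000162). Hadhb had a contrast of -0.98 ± 0.15, adjusted p = 0.000563, and Cs, the citrate synthase gene, had one of -0.01 ± 0.12, adjusted p = 0.963.

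Sterol synthesis and cholesterol efflux genes were above the sum in 8 of 20 and below in 5, and the counts were 5 and 5 after quantile normalization. Above were Abca1 and the synthesis genes Msmo1 (1.18 ± 0.17) and Fdft1 (1 ± 0.15). Abcg1, another efflux transporter gene, was below, with 9.98 and 9.89 in LPS/IL4/IL13, against 10.61 and 10.70 in IFN/LPS, 11.41 and 11.50 in IL4/IL13 and 10.86 and 10.75 in Control; the combination was its lowest group (contrast -1.37 ± 0.11, adjusted p = 2.8e-06). Ch25h, which makes 25-hydroxycholesterol, had 11.76 and 11.94 in LPS/IL4/IL13, against 11.74 and 11.69 in IFN/LPS, 7.75 and 7.68 in IL4/IL13 and 6.12 and 6.20 in Control and a contrast of -1.42 ± 0.13, adjusted p = 8.01e-06, while on linear signal the contrast was 197.8. Apoe had a contrast of 0.11 ± 0.06, adjusted p = 0.267.

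Cell cycle genes were above the sum in 11 of 27 and below in 1, with a median of 0.42. Mcm6, part of the replicative helicase, had 8.38 and 8.28 in LPS/IL4/IL13, against 7.54 and 7.66 in IFN/LPS, 8.21 and 8.01 in IL4/IL13 and 8.47 and 8.63 in Control, and the combination stood nearer to Control than IFN/LPS did (contrast 1.17 ± 0.15, adjusted p = 0.000166). Rrm1, a ribonucleotide reductase gene, had 7.63 and 7.37 in LPS/IL4/IL13, against 6.84 and 6.92 in IFN/LPS, 8.62 and 8.37 in IL4/IL13 and 8.87 and 8.95 in Control (contrast 1.03 ± 0.17, adjusted p = 0.000881). Cdk2 had a contrast of 0.94 ± 0.18, adjusted p = 0.00271, and the mitotic genes Bub1b (0.92 ± 0.18) and Plk1 (0.72 ± 0.21) were above too. Pcna had 0.07 ± 0.11, adjusted p = 0.708, and Ccne1 lay below (-0.50 ± 0.15).

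Macrophage transcription factor genes were split, 7 above and 5 below of 18. Bhlhe41 had 4.62 and 4.58 in LPS/IL4/IL13, against 4.35 and 4.46 in IFN/LPS, 5.55 and 5.51 in IL4/IL13 and 7.52 and 6.92 in Control, and its additive level of 2.72 lay under the 5th percentile of all values (contrast 1.88 ± 0.23, adjusted p = 0.000112). Cebpb, a factor of inflammatory gene induction, had 10.12 and 9.94 in LPS/IL4/IL13, against 9.33 and 9.22 in IFN/LPS, 7.47 and 7.43 in IL4/IL13 and 7.94 and 7.80 in Control. IL4/IL13 lowered it slightly and the combination was highest (contrast 1.18 ± 0.14, adjusted p = 8.3e-05). Bhlhe40 had a contrast of -1.16 ± 0.16, adjusted p = 0.000241, and Klf4, a factor of alternative activation, one of -1.12 ± 0.16, adjusted p = 0.000453 at group means of 7.89 in LPS/IL4/IL13, 7.38 in IFN/LPS, 8.88 in IL4/IL13 and 7.26 in Control. Spi1, the PU.1 gene, had a contrast of -0.10 ± 0.09, adjusted p = 0.487.

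Markers of other cell types departed in 6 of the 43 measured, beside a share of 20.1% over all genes. Of the 8 macrophage markers, 4 lay above the sum (Cd14, Itgam, Fcgr1 and Csf1r) and 0 below. The dendritic cell marker Xcr1 lay below the sum (-2.15 ± 0.20), high under IFN/LPS only at group means of 5.90 in LPS/IL4/IL13, 7.87 in IFN/LPS, 5.80 in IL4/IL13 and 5.62 in Control, and 0 of the 7 dendritic markers lay above the median Control level of all genes. Their summed linear signal was 464.4 and 500.2 in LPS/IL4/IL13, 579.1 and 618.8 in IFN/LPS, 365.8 and 376.3 in IL4/IL13 and 296.2 and 314.0 in Control. The neutrophil marker S100a8 (0.90 ± 0.28) and the B lymphocyte marker Cd79b (1.37 ± 0.16) lay above, with summed signals of their lists of 746.5 to 847.8 and 419.9 to 468.8 in LPS/IL4/IL13, 799.4 to 806.3 and 264.2 to 268.1 in IFN/LPS, 982.9 to 1003 and 387.6 to 395.9 in IL4/IL13, and 992.4 to 1017 and 386.9 to 390.8 in Control. The T and NK markers Cd4 (0.80 ± 0.14), Ncr1 (-0.62 ± 0.19) and Nkg7 (-0.57 ± 0.15) departed too, and the 2 members called below were 0 after quantile normalization and 1 after median centring. The list summed to 382.9 to 399.1, 411.8 to 418.0, 411.7 to 454.4 and 523.1 to 529.9 in the same order of groups. Mast cell and basophil, fibroblast and erythroid markers departed in 0 of 6, 0 of 7 and 0 of 3 under limma. In the other lists, 4 of 8 neutrophil and 3 of 7 fibroblast markers lay above the median Control level of all genes. This held for 1 of 5 B lymphocyte and 1 of 7 T and NK markers, and for 0 mast cell and basophil or erythroid markers. The fibroblast list summed to 862.4 to 873.7 in LPS/IL4/IL13, 808.9 to 849.8 in IFN/LPS, 672.4 to 737.4 in IL4/IL13 and 693.5 to 695.8 in Control. The part of other cells in the results was not tested.

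The remaining named genes show further arrangements. Aqp9, an aquaporin gene, was raised by IFN/LPS and more so by the combination, with 10.82 and 10.60 in LPS/IL4/IL13, against 8.18 and 8.03 in IFN/LPS, 5.70 and 5.80 in IL4/IL13 and 5.65 and 5.50 in Control (contrast 2.43 ± 0.16, adjusted p = 8.35e-07). Ednrb, an endothelin receptor gene, had 11.06 and 10.69 in LPS/IL4/IL13, against 8.76 and 8.97 in IFN/LPS, 7.56 and 7.60 in IL4/IL13 and 8.13 and 8 in Control. It was highest in the combination (contrast 2.50 ± 0.17, adjusted p = 1.31e-06), in which Edn1 was highest too. Calcrl, the receptor gene for calcitonin gene-related peptide and adrenomedullin, had 11.93 and 11.67 in LPS/IL4/IL13, against 10.27 and 10.31 in IFN/LPS, 9 and 8.76 in IL4/IL13 and 10.02 and 9.98 in Control (contrast 2.63 ± 0.14, adjusted p = 2.33e-07), and Smim3 had one of 2.59 ± 0.14, adjusted p = 1.95e-07. Ptpn22, a phosphatase gene of lymphoid and myeloid signalling, was lowered by all treatments (contrast 2.82 ± 0.17, adjusted p = 4.1e-07). Sele, the E-selectin gene, had 6.43 and 6.47 in LPS/IL4/IL13, against 9.61 and 9.53 in IFN/LPS, 5.91 and 6.25 in IL4/IL13 and 5.75 and 6.04 in Control, high under IFN/LPS only (contrast -3.30 ± 0.19, adjusted p = 3.12e-07), and Prrg4 had one of -3.40 ± 0.16, adjusted p = 1.05e-07. Rhoj had 7.43 and 7.32 in LPS/IL4/IL13, against 9.17 and 8.96 in IFN/LPS, 9.75 and 9.55 in IL4/IL13 and 8.17 and 8.23 in Control. The combination was its lowest group, while each separate treatment raised it (contrast -3.14 ± 0.15, adjusted p = 1.05e-07). Enc1 (-2.29 ± 0.16), Dipk1a (-1.16 ± 0.18) and the pseudogene Nlrp1c-ps (-1.07 ± 0.19) were also lowest in the combination.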

How the data were processed

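RNA of 8 samples was hybridised to Affymetrix mouse gene arrays, per the labels. The deposited values, 1 per probe set, ran from 1.46 to 13.71 and were taken to be log2 signal, because of that range. The labels carry a MAS5 signal tag, and how the authors corrected and scaled the arrays is not given here. Of 35556 probe sets, 21789 had 1 gene symbol in the platform annotation, which can be old, 1621 had several and 12146 had none. For each of 19938 genes the probe set with the highest mean over all arrays was used, and other probe sets were left out.

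Groups came from the sample titles. Limma 3.58.1 under R 4.3.3 fitted 4 group means (mean-variance trend, 4 residual and 7.55 prior degrees of freedom), and the contrast LPS/IL4/IL13 minus IFN/LPS minus IL4/IL13 plus Control was adjusted by Benjamini-Hochberg over all genes. In simulated data, this step found 11.9% of true departures of 0.5, 92.5% of those of 1 and 100% of those of 2. Most departures of 0.5 were thus missed there, so a gene not called may still depart by that much. The precision rests on 2 arrays per group, and no detection calls were used.

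The contrast and the 24 gene lists were chosen with earlier results of these data known. The text names the 12 highest and 12 lowest contrasts (predicted genes and small RNAs left out), up to 2 genes per arrangement of the separate treatments with at least 20 called genes, up to 3 called members and 1 member not called per list, and 21 genes of macrophage activation. Other list members and markers in the text, some given with an adjusted p (Osm, Stat6, Mx1, Odc1, Ptgs2, Ptger4, Olr1, Tlr4, Ticam2 and Klf4), were chosen after their values were seen. Alternatives covered normalization, centring, dim genes, the variance model, the replicate number as a block, the choice of probe sets, a size threshold, linear signal and each array left out.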

Additional observations from a re-analysis of the deposited data

Results flagged for a closer look

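Probe sets outside the named genes also departed from the sum. In a fit of all 35556 probe sets, 469 of the 13767 with several gene symbols or none lay above the sum and 400 lay below it. In the same fit, 1777 of the 19938 named genes lay above and 893 below, which are larger shares. The largest departure among them was probe set 10398039, which carries no symbol, with group means of 11.19 in LPS/IL4/IL13, 12.11 in IFN/LPS, 8.725 in IL4/IL13 and 4.6 in Control (contrast -5.04 ± 0.12, limma adjusted p = 6.76e-06). These probe sets entered no count in the text above.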

How the results depend on the processing

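Of 111 called genes among the 139 chosen by rule, 107 kept direction and call under each of the 16 log2 alternatives in which they were tested (the dim Cxcl3 and Bhlhe41 dropped out where dim genes were left out); Il10, Ccl17, Nos2 and Edn1 lost the call under at least 1, and the cause was not tested. Genes not called could also gain a call. Among them were Socs3 with the mean over probe sets, Tnip3 and Tfec after quantile normalization, and Cxcl9 where dim genes were left out. Leaving out 1 array gave 1573 to 3394 genes above and 905 to 1585 below the sum, lowest without Control array 1 and highest without LPS/IL4/IL13 array 2, and without IL4/IL13 array 2 there were 1737 above and 995 below. Of the called genes, 2454 to 3731 kept the call without 1 array, and 1477 above and 783 below kept it in all 8 such fits. A fit of all probe sets gave 1777 named genes above and 893 below. In that fit limma's adjusted p of Il19 was 8.18e-05, against 1.05e-07 in the main fit, at the same contrast of 3.94. The cause of the lower counts was not tested. A contrast of at least 1 in size, a stricter rule, left 667 and 407. The share above among called genes was 65.8% as deposited, 55.2% after quantile normalization (2131 above, 1732 below) and 72.8% after median centring (2783 and 1042). Correlations of replicate differences between groups ran from -0.358 to 0.217. They cannot show whether arrays were handled in pairs, because the replicate numbers need not follow the handling. A replicate block gave 2609 above and 1362 below. On linear signal the contrast of 7 of the 111 changed sign: Tarm1 (2123.2), Ccl7 (2638.3), Cish (229.9), Slc7a2 (1547.8), Ch25h (197.8), Nfkbiz (-988.5) and Cxcl10 (-645.4). Of the genes named outside the rule, which were not recomputed one by one under the log2 alternatives, Ccl2, Il13ra1, Pdcd1lg2, Olr1 and Nlrp3 changed sign on linear signal too. Values near the ends of the signal range limit what a departure can show.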

Other observations

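The genes that stood furthest apart in the combination were picked by the gap between its 2 arrays and the nearest of the other 6, after their values were seen, and are given as values. Beside genes already described, those standing high included Id1, like Id3 an inhibitor of helix-loop-helix factors, with log2 signals of 8.90 and 8.70 in LPS/IL4/IL13, against 6.26 and 6.25 in IFN/LPS, 6.33 and 6.43 in IL4/IL13 and 6.07 and 6.07 in Control (contrast 2.24 ± 0.15, adjusted p = 9.52e-07). F2r, the thrombin receptor gene, had 9.51 and 8.86 in LPS/IL4/IL13, against 6.11 and 6.47 in IFN/LPS, 6.28 and 5.95 in IL4/IL13 and 5.55 and 5.68 in Control (contrast 2.40 ± 0.28, adjusted p = 6.9e-05). Slc39a14, a zinc and iron importer gene, had 10.21 and 10.13 in LPS/IL4/IL13, against 8.21 and 8.05 in IFN/LPS, 6.92 and 6.50 in IL4/IL13 and 6.83 and 6.96 in Control (contrast 2.22 ± 0.19, adjusted p = 5.56e-06). Itgb8, an integrin subunit gene, had a contrast of 1.34 ± 0.17, adjusted p = 0.000125, Cav1, the caveolin gene, one of 1.66 ± 0.15, adjusted p = 1.1e-05, and Sema4c, a semaphorin gene, one of 2.13 ± 0.15, adjusted p = 1.23e-06.

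Those standing low in the combination were led by Vsir, the gene of the inhibitory immune receptor VISTA, with 8.37 and 8.46 in LPS/IL4/IL13, against 11.16 and 11.21 in IFN/LPS, 11.48 and 11.45 in IL4/IL13 and 12.05 and 12 in Control (contrast -2.21 ± 0.10, adjusted p = 6.79e-08). Each separate treatment lowered Vsir by less than 1 on the log2 scale. N4bp2l1 had 6.17 and 6.03 in LPS/IL4/IL13, against 8.29 and 8.35 in IFN/LPS, 8.39 and 8.25 in IL4/IL13 and 8.80 and 8.90 in Control (contrast -1.69 ± 0.14, adjusted p = 5.65e-06), and Pgm2l1 had a contrast of -1.95 ± 0.16, adjusted p = 4.17e-06. Card6 (-1.47 ± 0.19), Hsd17b11 (-1.08 ± 0.09) and Kif13b (-0.96 ± 0.12) were also lower in both combination arrays than in the other 6.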
